A study of Mus with 6 samples.

Results

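The genes described here are 50 ribosome biogenesis and nucleolar genes, a list of symbols for factors that make ribosomes, out of 10995 genes in the table. The list was drawn up with earlier results of these data known. All 50 symbols were present. They comprise 5 genes of RNA polymerase I transcription, 3 nucleolar chaperones, 4 proteins of box C/D and 4 of box H/ACA small nucleolar ribonucleoproteins (snoRNPs), 15 factors of the small ribosomal subunit, 18 factors of the large subunit, and the helicase Ddx21.

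The study asked what T cells do with the growth factor VEGF-B that they make themselves, and these libraries compare activated cells in which it was blocked by an antibody with activated cells given a control antibody. Both groups held naive CD4+ T cells from the spleen of mice labelled WT (the study's mice were C57BL/6), stimulated for 3 days with anti-CD3 at 5 μg/mL, anti-CD28 at 2 μg/mL and IL-2 at 100 U/mL. The groups differed in the added antibody, anti–VEGF-B at 1 μg/mL in 3 libraries and normal goat IgG at 1 μg/mL in the other 3. The study's RNA-Seq methods describe antibody and stimulation together over the 3 days, whereas its results place the stimulation before the antibody. Age and sex of the animals are not given for these libraries in the sources used here. Unstimulated cells were not analysed here, so no value shows how far stimulation itself had moved a gene. The labels do not say whether the 3 libraries of a group came from separate animals or cultures, so the p-values measure the spread between these libraries, which may be technical.

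Ribosomes are assembled in the nucleolus, where RNA polymerase I transcribes a long precursor of the ribosomal RNAs. snoRNPs guide the chemical modification of that precursor, box C/D particles by methylating riboses and box H/ACA particles by converting uridine to pseudouridine, and a large set of helicases, GTPases, nucleases and scaffold proteins then cuts, folds and exports the small and large subunits. T cells enlarge their nucleoli and raise ribosome production when they leave rest and start to divide, and this program is known as a target of Myc.

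Levels are given as FPKM, fragments counted on a gene relative to the length of its model and to the size of the library, which can be compared between genes. Differences are log2 fold changes of FPKM + 1, anti–VEGF-B minus IgG, a scale that understates the change of genes with low levels. The summed FPKM of a library lay between 260100 and 276600, and the read depth behind the values is unknown. All 8 CD4 T cell markers were present, with summed levels of 574 to 617 FPKM with anti–VEGF-B and 566 to 651 with IgG. Of the 2 CD8 T cell markers, Cd8a reached at most 0.182 FPKM while Cd8b1 was at 2.27 to 4.51 FPKM, with overlapping groups. Of the other lists, 1 of 6 B cell markers was listed at no more than 1.34 FPKM (Cd79b), 2 of 4 natural killer cell markers were listed with sums of 1.03 to 2.09, and none of the 4 dendritic or 5 erythroid markers was in the table. The 6 of 8 myeloid markers in the table summed to 13.3 to 15.1 FPKM with anti–VEGF-B and to 14.2 and 14.7 in IgG replicates 1 and 2, but to 35.0 in IgG replicate 3, where Lyz2 alone reached 16.4. Of the 8 CD4 T cell markers, 2 were called lower with anti–VEGF-B, Cd3e (-0.51) and Cd5 (-0.38, limma adjusted p = 0.0197 and 0.0343), a share of 25.0% against 23.8% of all tested genes. Of the 6 that did not pass the test, Cd3g (-0.43, limma adjusted p = 0.062) and Cd2 (-0.09) were below 0. The other 4 were above 0 (Cd28 0.12, Cd3d 0.10, Cd4 0.03 and Lck 0.0041).

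Ribosome biogenesis genes were mostly lower in anti–VEGF-B libraries. Of the 49 members that passed the filter of a mean of 1 FPKM, 27 fell and 0 rose (limma with Benjamini-Hochberg adjustment over all 8816 tested genes, adjusted p under 0.05), which is 55.1% against 23.8% of all tested genes called lower and none against 4.87% called higher. A further 17 members had a log2 fold change below 0 and 5 had one above 0 (Ncl, Npm1, Nhp2, Utp14a and Ddx18) without passing the test, so that 44 of 49 were below 0, against 71.2% of all tested genes. The median log2 fold change was -0.38 over the members and -0.15 over all tested genes, a difference of -0.23. In 34 members every anti–VEGF-B library was below every IgG library, against 38.5% of all tested genes, and in 1 member, Ncl, every one was above, against 10.5%. In a bulk sample, fewer cells of a type and less RNA per cell cannot be told apart.

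The count depended on single libraries and on scaling. Without anti–VEGF-B replicate 3, 14 members were called lower against 7.88% of all genes, without IgG replicate 2, 17 were called lower against 12.5%, and without the IgG replicate 3 that had the high myeloid markers, 24 were called lower against 17.3%. Scaling the libraries to a shared median gave 14 members lower and 2 higher (Ncl and Ddx18), against 9.15% of all genes lower and 15.5% higher. None of the 27 called members changed sign under any alternative, and 12 of them (Ddx21, Ftsj3, Gar1, Gnl3, Nolc1, Nop2, Nop56, Ppan, Rrn3, Rrs1, Tsr1 and Wdr43) passed the test under all 4 other scalings and without any 1 library, while the other 15 lost the call at least once among those settings. Each gene's variance was estimated together with all other genes. In a linear model without that moderation, all 27 called members lost the call, also the 12 named above. It called 1 member, Nob1 (lower), which was not among the 27. Of all genes it called 12, 6 of which were lower (0.0681% of all genes).

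**Figure D1:**
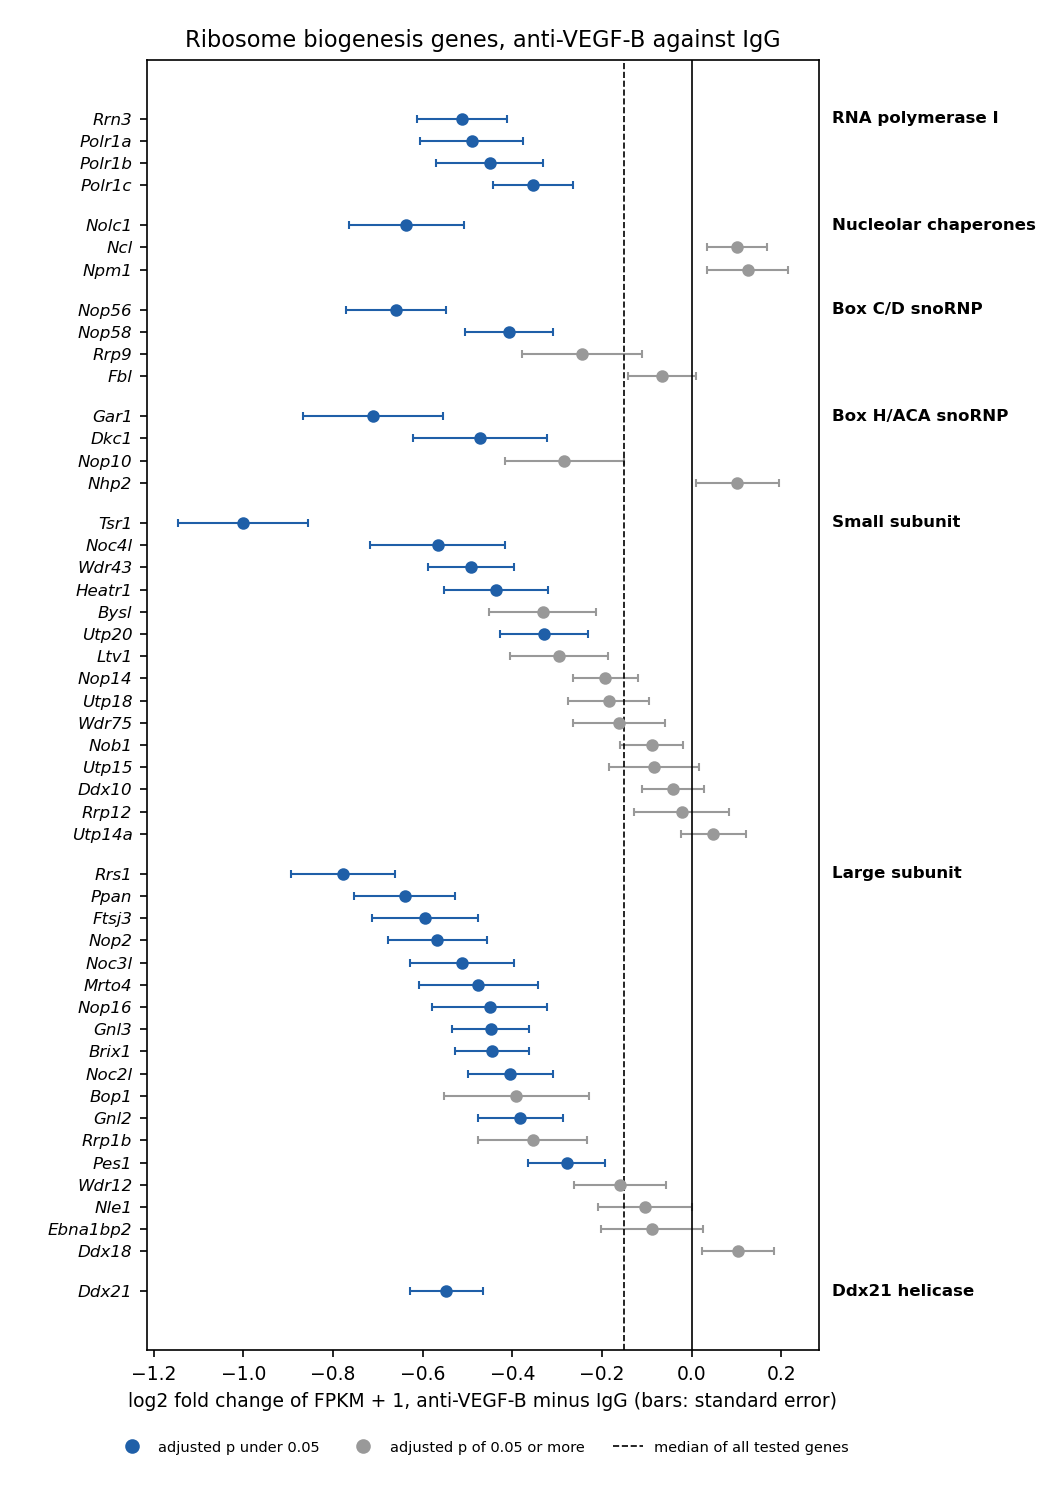
Log2 fold change of FPKM + 1 (anti–VEGF-B minus IgG, 3 libraries each) of the 49 tested members, grouped by role, with bars of 1 standard error; blue points passed an adjusted p of 0.05 and the dashed line is the median of all tested genes at -0.15. The points run from -1.0 for Tsr1 to 0.13 for Npm1, and all 27 blue points lie left of the dashed line.

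Transcription of ribosomal RNA by RNA polymerase I was represented by 5 members, and all 4 that were tested fell, against 23.8% of all tested genes. Of 16 further listed factors of RNA polymerase I, 4 fell (25.0%) and 1 rose. Of the 4 members that fell, only Rrn3 kept the call under all 4 other scalings and without any 1 library. Rrn3 (chr16:13780699-13814840), the initiation factor that makes the polymerase competent to start, was at 5.67, 5.26 and 5.45 FPKM with anti–VEGF-B and at 7.27, 8.98 and 8.47 FPKM with IgG. The highest anti–VEGF-B library was below the lowest IgG library, and the log2 fold change was -0.51 (SE 0.10, limma adjusted p = 0.00992). Polr1a, the largest catalytic subunit, was at 1.93, 1.79 and 1.67 FPKM against 2.69, 3.50 and 2.64 FPKM, again without overlap, a log2 fold change of -0.49 (SE 0.12, limma adjusted p = 0.0167). Polr1b, the other large catalytic subunit, had a low level (mean 0.737 against 1.39 FPKM) and a log2 fold change of -0.45 (limma adjusted p = 0.0245). Polr1c, a subunit shared with RNA polymerase III, was the most abundant of the group at 41.9, 37.6 and 36.5 FPKM against 54.0, 49.6 and 45.4 FPKM. The groups did not overlap here either, and of the 4 changes this one was smallest, at -0.35 (SE 0.09, limma adjusted p = 0.0201). Polr1e, the remaining member of the group and the only one of the 50 under the filter, had 0.907, 0.569 and 0.529 FPKM with anti–VEGF-B and 0.920, 1.45 and 1.48 FPKM with IgG. It was called lower only in the fit without a filter (limma adjusted p = 0.0406). The summed level of the 5 genes was 44.9 to 51.1 FPKM with anti–VEGF-B and 59.6 to 65.9 FPKM with IgG.

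The nucleolar chaperones split. Npm1 (nucleophosmin, chr11:33152287-33163206), the abundant histone and ribosomal protein chaperone of the granular part of the nucleolus, was at 1011, 929 and 1035 FPKM with anti–VEGF-B and at 977, 823 and 932 FPKM with IgG. The groups overlapped, with a log2 fold change of 0.13 (SE 0.09, limma adjusted p = 0.313). Ncl (nucleolin, chr1:86344719-86359400), which binds the precursor RNA, was at 213, 217 and 208 FPKM against 200, 192 and 202 FPKM. Every anti–VEGF-B library was the higher, by a log2 fold change of 0.10 that did not pass the test (SE 0.07, limma adjusted p = 0.262). Nolc1 (Nopp140, chr19:46075863-46085530), a chaperone of both classes of snoRNP, was at 4.22, 4.67 and 4.37 FPKM against 6.69, 9.25 and 6.59 FPKM. It fell by 0.64 on the log2 scale (SE 0.13, limma adjusted p = 0.0109), with no overlap and with IgG replicate 2 well above the other libraries. Npm1 and Ncl made up most of the members' FPKM. The sum over all 50 members was 1631 to 1716 FPKM with anti–VEGF-B and 1630 to 1765 with IgG, which overlap, but without Npm1 and Ncl it was 492, 485 and 465 FPKM with anti–VEGF-B against 588, 615 and 562 with IgG, which do not.

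In the box C/D snoRNP, the enzyme and its scaffold proteins had different values. Fbl (fibrillarin), the methyltransferase, was at 18.4, 19.3 and 17.5 FPKM with anti–VEGF-B and 19.9, 19.2 and 18.8 FPKM with IgG, a log2 fold change of -0.07 (SE 0.08, limma adjusted p = 0.530) with overlapping groups. Nop56 (chr2:130274430-130279313), a core scaffold protein of the same particle, was at 8.55, 10.3 and 8.62 FPKM against 15.4, 16.7 and 13.0 FPKM. It fell by 0.66 on the log2 scale (SE 0.11, limma adjusted p = 0.00717). Its partner Nop58 was at 3.88, 3.72 and 3.56 FPKM against 4.79, 5.68 and 5.33 FPKM, a log2 fold change of -0.41 (SE 0.10, limma adjusted p = 0.0180), so that neither scaffold gene had overlapping groups. Rrp9, specific to the U3 particle that prepares the first cuts of the precursor, had a mean of 2.96 against 3.69 FPKM and overlapped (log2 fold change -0.25, limma adjusted p = 0.187).

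The box H/ACA snoRNP showed a similar mixture. Gar1 (chr3:129824912-129831396), one of its 4 proteins, was at 4.49, 3.64 and 2.65 FPKM with anti–VEGF-B and 5.64, 7.36 and 6.34 FPKM with IgG, and fell by 0.71 on the log2 scale (SE 0.16, limma adjusted p = 0.0136). Dkc1 (dyskerin), the pseudouridine synthase, was at 2.71, 2.83 and 2.02 FPKM against 3.25, 4.93 and 3.54 FPKM. With a log2 fold change of -0.47 (SE 0.15, limma adjusted p = 0.0433) it was the called member nearest the threshold, and it lost the call under all 4 other scalings (down to -0.24 with quantile normalization, limma adjusted p = 0.174), without a filter, without moderation and in 5 of the 6 fits that left out 1 library. Nop10, a small protein that holds the enzyme in place, was at 19.0, 12.4 and 15.7 FPKM against 18.3, 19.3 and 19.6 FPKM, where anti–VEGF-B replicate 1 was as high as the IgG libraries (log2 fold change -0.28, limma adjusted p = 0.130). Nhp2, an RNA-binding protein of the particle, was at 35.3, 30.2 and 35.2 FPKM against 32.2, 28.4 and 32.9 FPKM, and the groups overlapped (log2 fold change 0.10, limma adjusted p = 0.416).

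**Figure D2:**
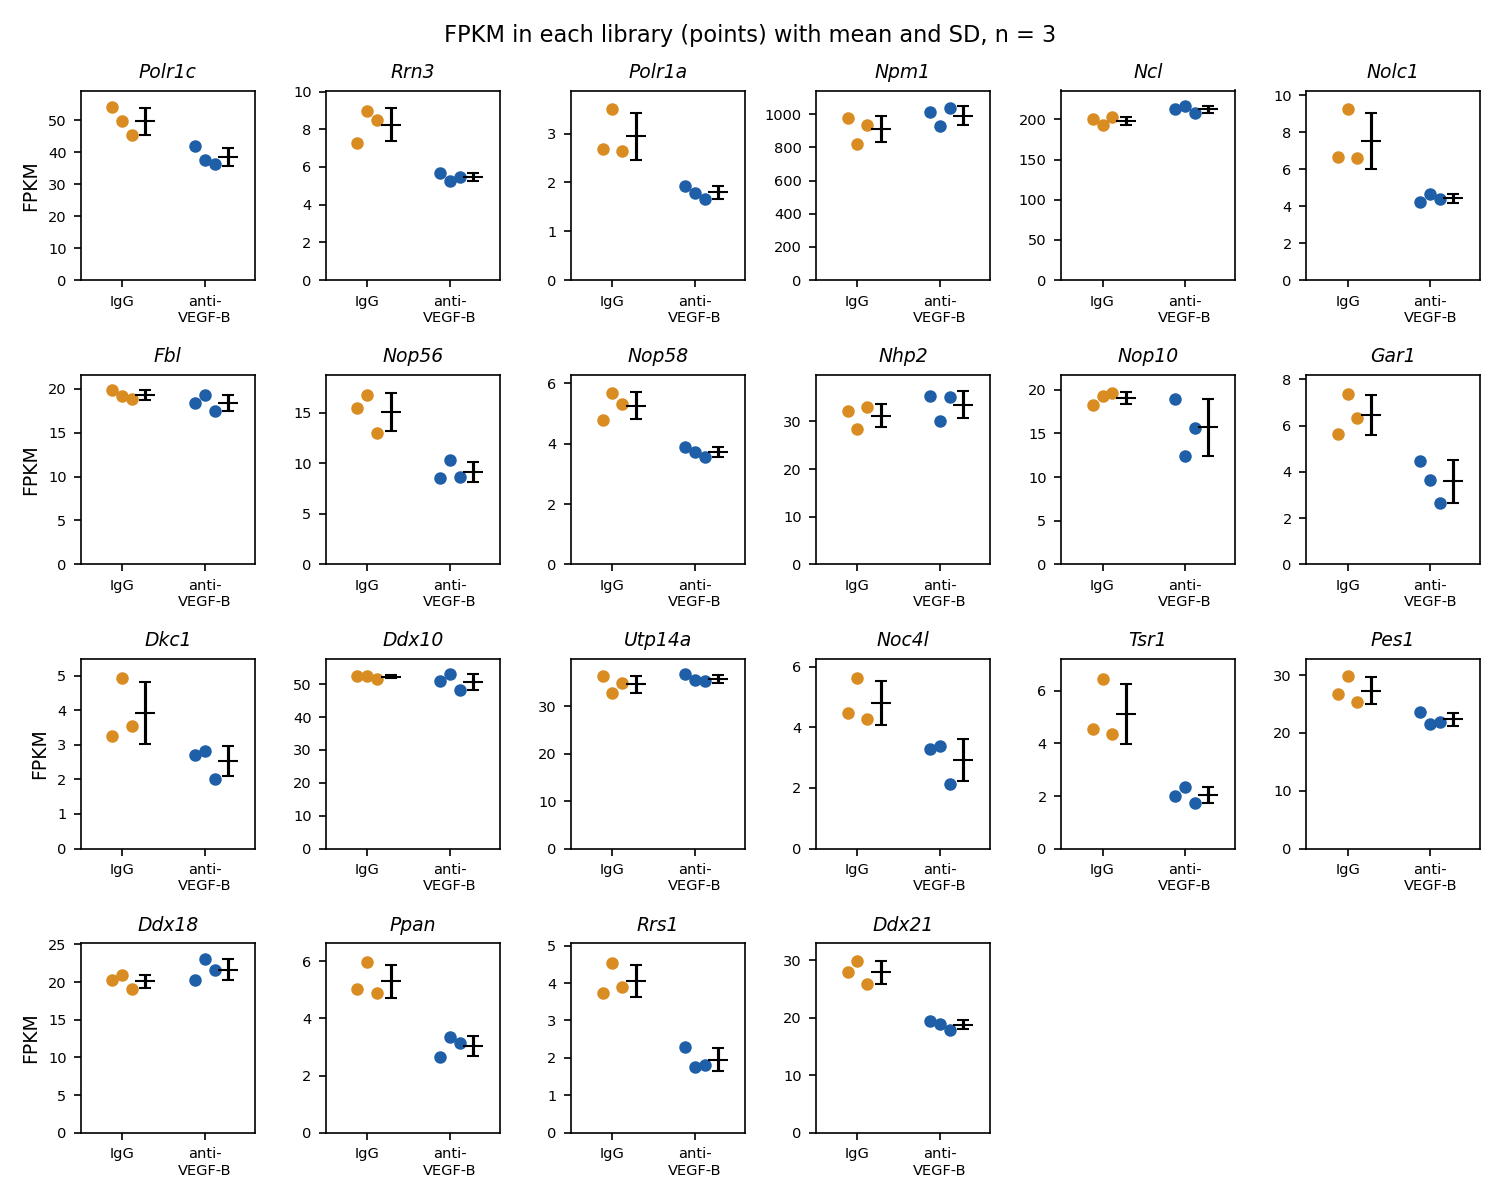
FPKM in each library (points), with the mean and SD (n = 3) of each group, for the 22 members named by level or by size of change in their role group; every axis starts at 0. Tsr1, Rrs1, Gar1, Nop56 and Ddx21 have no anti–VEGF-B point as high as an IgG point, while the points of Npm1, Fbl, Nhp2, Ddx10 and Utp14a overlap.

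Among the 15 small-subunit factors 5 fell, a share of 33.3% against 23.8% of all tested genes. The median log2 fold change was -0.19, close to the -0.15 of all genes. Tsr1 (chr11:74898071-74909342), a GTPase-like factor of late cytoplasmic maturation, had the largest change of all members. It was at 2.01, 2.36 and 1.74 FPKM with anti–VEGF-B and 4.55, 6.45 and 4.37 FPKM with IgG, so that its anti–VEGF-B mean was 39.7% of its IgG mean. The log2 fold change was -1.0 (SE 0.14, limma adjusted p = 0.00499) and the groups were far apart. Noc4l, which joins Nop14 in an early complex, was at 3.29, 3.37 and 2.14 FPKM against 4.47, 5.62 and 4.28 FPKM (log2 fold change -0.57, SE 0.15, limma adjusted p = 0.0246). Its partner Nop14 had means of 26.4 and 30.2 FPKM and a log2 fold change of -0.19 that missed the threshold (limma adjusted p = 0.0720).

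The other 3 small-subunit genes that fell act on the early precursor particle, the processome. Wdr43, with a mean of 14.2 against 20.4 FPKM, had a log2 fold change of -0.49 (limma adjusted p = 0.00975), Heatr1 one of -0.44 (0.0245) and Utp20 one of -0.33 (0.0351). Heatr1, Wdr43, Wdr75 and Utp15 are usually placed in 1 subcomplex of the processome that also acts in transcription, and the latter 2 did not pass the test, at -0.16 and -0.08. The 2 most abundant small-subunit factors differed little between groups. The helicase Ddx10 was at 51.1, 53.0 and 48.2 FPKM with anti–VEGF-B and 52.6, 52.5 and 51.8 with IgG (log2 fold change -0.04, SE 0.07, limma adjusted p = 0.662). Utp14a, a cofactor of another processome helicase, was at 36.7, 35.4 and 35.2 against 36.2, 32.7 and 34.8 FPKM (0.05, SE 0.07, limma adjusted p = 0.636), and both genes overlapped between groups. The uncalled Bysl (-0.33), Ltv1 (-0.30), Utp18 (-0.19) and Nob1 (-0.09), like Nop14, had no overlap between groups, while Rrp12 (-0.02) did. Nob1, the nuclease of the final cut, had the tightest values of any member, with means of 18.8 ± 0.0349 and 20.0 ± 0.0694 FPKM (SD, n = 3).

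Of the 18 large-subunit factors 12 fell (66.7%, against 23.8% of all tested genes), which is 12 of the 27 members that fell. The median log2 fold change of the 18 was -0.43, against -0.15 over all tested genes. Of 50 further listed large-subunit factors that were tested, 11 fell (22.0%) and 1 rose, with a median of -0.21. Rrs1 (chr1:9545408-9547455), which helps bring the small ribosomal RNA particle of the large subunit into place, was at 2.30, 1.76 and 1.80 FPKM with anti–VEGF-B and 3.74, 4.54 and 3.89 FPKM with IgG. It fell by 0.78 on the log2 scale (SE 0.12, limma adjusted p = 0.00511), to 48.1% of the IgG mean. Ppan, an early assembly factor, was at 2.65, 3.33 and 3.13 FPKM against 5.01, 5.97 and 4.90 FPKM (log2 fold change -0.64, SE 0.11, limma adjusted p = 0.00768). Neither gene had overlapping groups. The RNA methyltransferases Ftsj3 (-0.59) and Nop2 (-0.57), with limma adjusted p-values of 0.0106 and 0.00984, fell to a like extent.

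The remaining large-subunit calls were smaller. Noc3l (-0.51) and Noc2l (-0.40), partners in a complex that accompanies the particle out of the nucleolus, both fell, as did Mrto4 (-0.48), a relative of the stalk protein that holds its place during assembly. The GTPases Gnl3 (nucleostemin, -0.45) and Gnl2 (-0.38) and the early factors Brix1 (-0.45) and Nop16 (-0.45) were also called, with limma adjusted p-values from 0.00861 to 0.0311 over these 4. Of the PeBoW complex, made by Pes1, Bop1 and Wdr12, only Pes1 was called, and differences between these genes were not tested. Pes1, the most abundant large-subunit factor, was at 23.6, 21.5 and 21.9 FPKM against 26.8, 29.9 and 25.3 FPKM, without overlap, and fell by 0.28 (SE 0.09, limma adjusted p = 0.0397). Bop1 had a log2 fold change of -0.39 but a wider error (SE 0.16, limma adjusted p = 0.0961) and Wdr12 one of -0.16 (limma adjusted p = 0.256). Rrp1b was the member just outside the threshold, at 1.81, 1.77 and 1.73 FPKM against 2.00, 2.96 and 2.75 FPKM (log2 fold change -0.35, limma adjusted p = 0.0561). Ebna1bp2 (-0.09) and Nle1 (-0.10) were not called. The helicase Ddx18 was at 20.3, 23.1 and 21.6 FPKM with anti–VEGF-B and 20.2, 20.9 and 19.1 with IgG, with overlap and a log2 fold change of 0.10 (SE 0.08, limma adjusted p = 0.350).

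Ddx21 (chr10:62580251-62602281), a helicase that links transcription by RNA polymerases I and II with processing of the precursor, was at 19.4, 19.0 and 17.9 FPKM with anti–VEGF-B and 28.0, 29.9 and 25.9 FPKM with IgG. The groups were well separated, and it fell by 0.55 on the log2 scale (SE 0.08, limma adjusted p = 0.00511). With Tsr1 and Rrs1 it had the lowest adjusted p-values of the members. For each member with separate groups, an exact permutation test of 3 libraries against 3 gave p = 0.1 (two-sided), the smallest it can give.

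The called members were mostly of low or middle level. Of the 6 members with a mean of at least 30 FPKM (Npm1, Ncl, Ddx10, Polr1c, Utp14a and Nhp2), 1 fell, Polr1c, against 13.2% of all tested genes of that level. Between 10 and 30 FPKM 8 of 14 members fell (57.1%, against 21.1% of all genes), between 3 and 10 FPKM 13 of 19 (68.4%, against 27.9%), and between 1 and 3 FPKM 5 of 10 (against 26.3%). All tested genes also shifted with level, from a median log2 fold change of -0.23 in the lowest class through -0.19 and -0.10 to 0.03 in the highest. The members' medians in the same classes were -0.37, -0.47, -0.33 and 0.07, below those of all genes in the 3 lower classes and not in the highest.

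**Figure D3:**
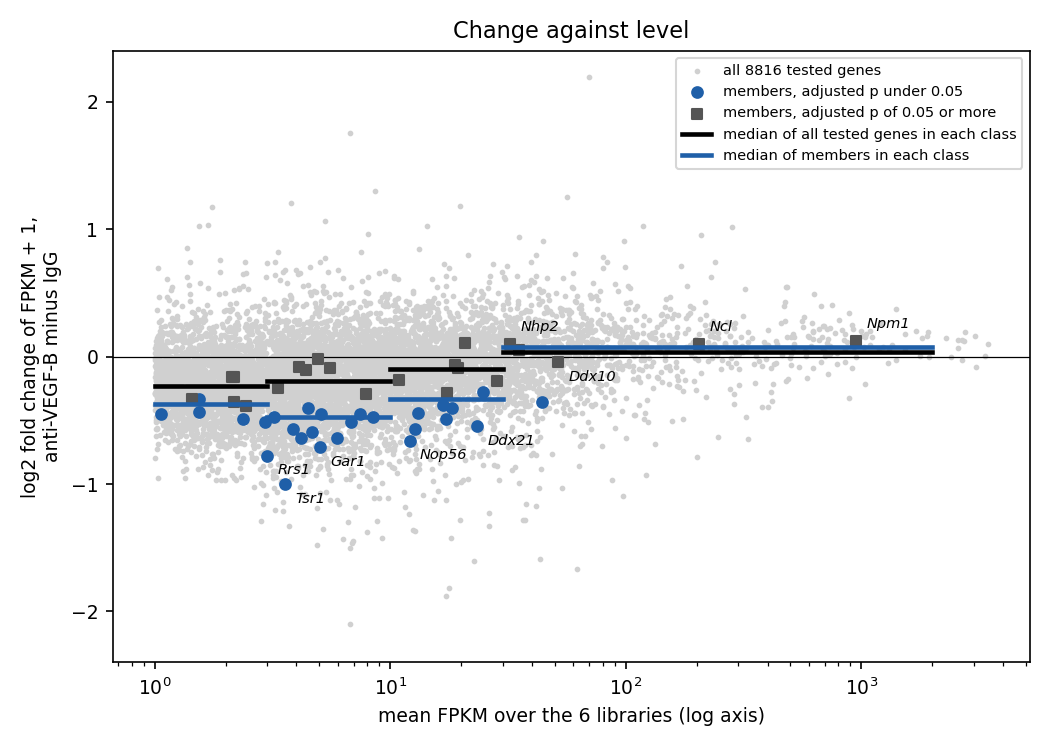
Log2 fold change of FPKM + 1 (anti–VEGF-B minus IgG) against the mean FPKM of the 6 libraries on a log axis, for all 8816 tested genes (grey) and the members (blue circles, called; dark squares, not called), with class medians as bars. The members' bars lie at -0.37, -0.47, -0.33 and 0.07 beside -0.23, -0.19, -0.10 and 0.03 for all genes.

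Ratios within a library describe the unequal changes inside each role group. In each group with several members, the FPKM of the member with the largest change was divided by that of the most abundant member (for the chaperones Nolc1 by Npm1). The pairs were picked from these values, so that low ratios with anti–VEGF-B follow from the choice, and ratios of a less to a more abundant gene would also fall with the shift by level seen over all genes. Over 3 libraries a group (mean ± SD), Tsr1 was 0.0400 ± 0.00422 of Ddx10 under anti–VEGF-B against 0.0979 ± 0.0216 under IgG. Nop56 was 0.496 ± 0.0332 of Fbl against 0.779 ± 0.0883, Gar1 was 0.108 ± 0.0282 of Nhp2 against 0.209 ± 0.0444, and Rrs1 was 0.0871 ± 0.00887 of Pes1 against 0.148 ± 0.00778. Nolc1 was 0.00448 ± 0.000482 of Npm1 against 0.00838 ± 0.00247. In these 5 pairs no anti–VEGF-B library reached an IgG library, whereas Rrn3 over Polr1c overlapped, at 0.142 ± 0.00725 against 0.167 ± 0.0284.

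Across libraries, the members' median distance from the IgG mean of each gene was -0.36, -0.37 and -0.38 in replicates 1 to 3 under anti–VEGF-B, against -0.02, 0.10 and -0.07 under IgG. The same distance over all tested genes was -0.14, -0.13 and -0.18 against -0.05, 0.08 and -0.03. By these medians the 3 anti–VEGF-B libraries were close to each other and the IgG libraries were the more spread. This held for the members and also for all tested genes. IgG replicate 2 held the highest value of 32 of the 50 members and anti–VEGF-B replicate 3 the lowest value of 21. The same libraries were also highest and lowest over all tested genes, at 0.08 and -0.18, and the matching shares of all genes were not counted. By role, the anti–VEGF-B medians lay between -0.51 and -0.43 for RNA polymerase I, between -0.44 and -0.38 for the large subunit, between -0.47 and -0.20 for the box H/ACA snoRNP, between -0.40 and -0.22 for the box C/D snoRNP and between -0.26 and -0.16 for the small subunit. Only the median of the nucleolar chaperones was above 0 in all 3 anti–VEGF-B libraries, at 0.03 to 0.10, although 1 of these genes, Nolc1, fell.

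**Figure D4:**
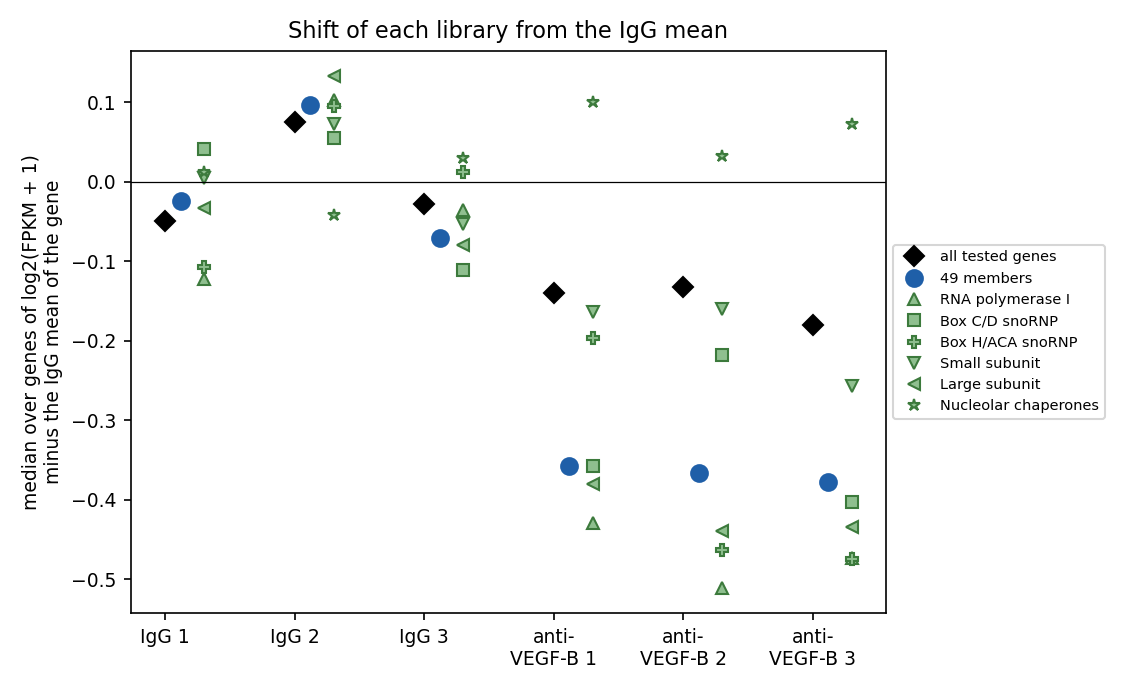
Median over genes of log2(FPKM + 1) minus the gene's IgG mean in each of the 6 libraries, for all tested genes (black), the 49 members (blue) and the role groups (green). The members sit at -0.36 to -0.38 in the anti–VEGF-B libraries, beneath all genes at -0.13 to -0.18. The median of the chaperones (stars) sits above 0 there, although Nolc1 among them fell.

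Other genes of the pathway were called lower about as often as all genes. Of 140 further listed factors, 131 were tested, and 33 of them fell (25.2%, close to the 23.8% of all genes) and 3 rose (Tsr3, Taf1d and Nop53), with a median log2 fold change of -0.22. Without regard to the call, 104 of the 131 had a log2 fold change below 0 (against 71.2% of all genes), and in 51.9% every anti–VEGF-B library was below every IgG library (against 38.5%), between the values of the members and of all genes. By role, 13 of 45 small-subunit factors, 11 of 50 large-subunit factors, 4 of 16 factors of RNA polymerase I, 4 of 12 exosome genes and 1 of 8 snoRNP assembly factors fell. The 3 that rose were, in order, an enzyme that modifies the small-subunit RNA (0.40), a subunit of the selectivity factor of RNA polymerase I (0.27) and a large-subunit factor (0.26), each the only call in that direction in its list.

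The genes with the lowest p in each of these lists were as follows. Exosc6 and Exosc1, subunits of the exosome that trims the precursor, had log2 fold changes of -0.85 and -0.66, from means of 2.52 to 0.919 FPKM and 1.97 to 0.891 FPKM (limma adjusted p = 0.00810 and 0.00950). Nvl, an ATPase that releases factors from the large subunit, and Mak16 fell by 0.63 and 0.43 on the log2 scale (limma adjusted p = 0.00933 and 0.00984). Taf1a, another subunit of the selectivity factor, and Polr2f, a subunit shared by all 3 nuclear RNA polymerases, had -0.50 and -0.46 (limma adjusted p = 0.0127 and 0.0170). Among small-subunit factors these were Tsr3, which rose, and Wdr46 (-0.64, limma adjusted p = 0.0138). In snoRNP assembly Ruvbl1, an ATPase of the assembly chaperone, fell by 0.48 (limma adjusted p = 0.0214), and Snu13, a core box C/D protein, did not pass at -0.30 (0.0566).

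The members kept a larger share of calls than all genes under each other way of scaling, and the further pathway genes did not. With quantile normalization 15 members (30.6%) and 9 further genes (6.87%) were called lower against 10.4% of all genes, with cyclic loess 16 (32.7%) and 9 against 10.6%, with median centring 14 (28.6%) and 6 (4.58%) against 9.15%, and with scaling to Actb 20 (40.8%) and 18 (13.7%) against 14.8%. The members' median minus that of all genes was between -0.23 and -0.21 in these 4 fits. Under other settings 27 members were called lower with no filter (20.6% of all genes) and with a pseudocount of 0.1 (23.7%), 15 of 28 at a mean of at least 5 FPKM (20.1%), and 12 by an unadjusted p under 0.05 together with a log2 fold change beyond 0.5 (11.3%). Leaving out IgG replicate 1 gave 26 (23.5%), and leaving out anti–VEGF-B replicate 1 or 2 gave 23 (15.5%) and 19 (16.2%). Since the lists were assembled with results of these data known, the difference between the 2 lists was not tested.

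**Figure D5:**
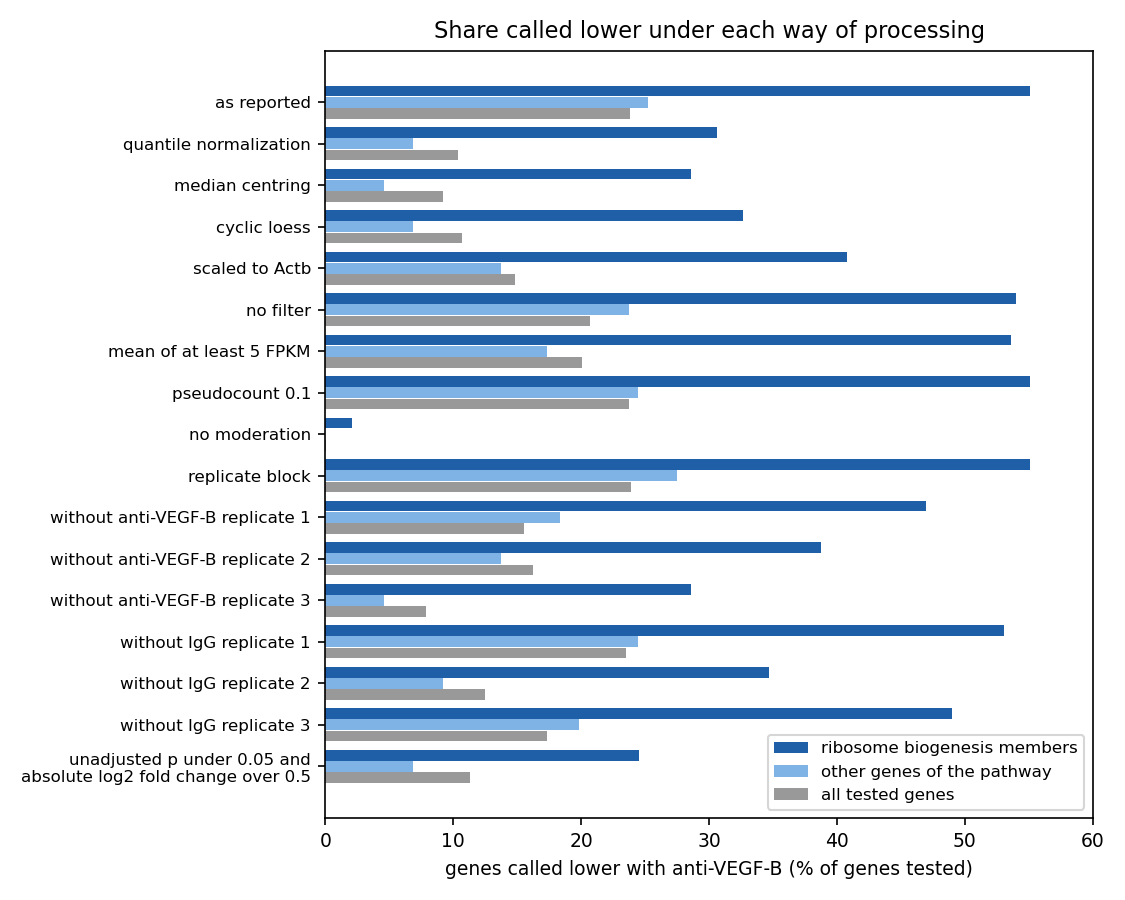
Percent of tested genes called lower with anti–VEGF-B under each way of processing, for the members (dark blue), the further pathway genes (light blue) and all tested genes (grey). The dark bars fall from 55.1% as reported to 28.6% with median centring and without anti–VEGF-B replicate 3. With limits on the unadjusted p and the fold change the dark bar is at 24.5%. Without moderation it holds 1 gene, Nob1, which was not called as reported. Each of these dark bars is above the grey bar of the same setting.

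Several members also carry other genes. In the RefSeq annotation, 21 snoRNA genes lie inside 8 members (Ncl, Nop56, Nop58, Dkc1, Wdr43, Tsr1, Ppan and Gnl3), among them Snord110 and Snord57 in Nop56 and Snord91a in Tsr1. Of these 8 members 7 fell, Ncl being the other one, and of the 41 tested members without a snoRNA gene 20 fell (48.8%). Among all tested genes 226 hold a snoRNA gene, and 15.9% of them were called lower, against 24.0% of those without. The members were spread over 18 chromosomes, with at most 7 on 1 of them (chromosome 11).

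Reads of overlapping genes may have been shared, since strand use in the counting is not given. A protein-coding gene overlaps 14 of the 50 members in the annotation, 7 of them called. For Tsr1 that neighbour was Srr, at 0.436 FPKM with anti–VEGF-B and 0.689 FPKM with IgG. Nop56 overlaps Idh3b, at 45.0 against 42.4 FPKM (log2 fold change 0.08, not called). Dkc1 overlaps Mpp1 and Heatr1 overlaps Lgals8, both of which were themselves called lower (-0.64 and -0.37, limma adjusted p = 0.00711 and 0.0404). Pseudogenes or related sequences named after a member, which could take reads, are annotated for Fbl (1) and Mrto4 (2), so the levels of these genes are uncertain. Pseudogenes under other symbols were not counted, so other members may be affected too. The part of such sharing in the members' values was not tested.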

How the data were processed

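Bulk RNA-Seq of activated mouse CD4+ T cells was analysed in 6 libraries, grouped by the GEO labels into anti–VEGF-B and IgG (3 each). The authors prepared stranded libraries, aligned reads to GRCm38/mm10 with hisat2 and assembled and quantified them with StringTie and Ballgown. The deposited table gives 1 FPKM value per gene and library, which the study calls raw data. The unit was taken from decimal values that sum to unequal totals and from Ballgown's usual output. Whether counting used strand, and how libraries were scaled to each other, is not given in the sources used here. Whole reads could not be recovered from low values (at most 1.37% of low genes had the same ratio between 2 libraries), so the depth is unknown and no count test or counting interval was possible.

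The 8816 of 10995 genes whose mean reached 1 FPKM were tested on log2(FPKM + 1) with limma 3.58.1 in R 4.3.3 (empirical Bayes with trend, 2-sided), and p-values were adjusted by the Benjamini-Hochberg method over all 8816. The design held no covariate. Genes were called when the adjusted p was under 0.05. Log2 fold changes are anti–VEGF-B minus IgG, and errors in the text are SE or SD (n = 3). The script was also run on simulated data in which the noise of each gene was drawn independently. Shifts shared by a library were not simulated, so that run cannot show how reliable the calls are here. The 50 members, their role groups and the other lists were chosen with earlier results of these data known. In each role group the 2 members with the highest mean FPKM and the 2 with the largest absolute log2 fold change were given in every library, together with the members on either side of the threshold and any that failed the filter. In each list of other genes, the 2 with the lowest p were named. Gene positions and overlapping genes were read from RefSeq (GRCm38.p6, the build of the files), in which all 50 symbols matched. Alternatives were 4 other scalings (quantile, median, cyclic loess, Actb), no filter, a mean of at least 5 FPKM, a pseudocount of 0.1, no moderation, limits (unadjusted p under 0.05 and a change beyond 0.5 on the log2 scale in either direction), a replicate block, and leaving out each library. Promoter and protein sequences were not analysed here, and neither was Riok2.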

Additional observations from a re-analysis of the deposited data

How the results depend on the processing

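No depth is known for these FPKM values, so low members carry an unstated counting error, and 3 libraries a group leave each call resting on the variance pooled over genes. The called members (27 as reported, all lower) numbered 15 with quantile normalization, 16 with median centring (14 lower and 2 higher) and 16 with cyclic loess. They numbered 15 of 28 at a mean of at least 5 FPKM and 12 under limits on the unadjusted p and the fold change. Without moderation 1 was called, Nob1, which was not among the 27. The shares of all genes called lower under these settings are given above. Leaving out 1 library gave 14 to 26. The members' median log2 fold change (-0.38) became -0.21, -0.18 and -0.20 with quantile, median and loess scaling, and was -0.42 to -0.33 without 1 library. The further pathway genes called in either direction, 36 as reported, were 17 with quantile normalization, 17 with cyclic loess and 20 scaled to Actb. They were 16 at a mean of at least 5 FPKM, 10 under the limits, 0 without moderation and 6 to 36 without 1 library. As reported, 33 of them were lower and 3 higher. The split was 9 lower and 8 higher with quantile normalization and also with cyclic loess, and 6 lower and 19 higher with median centring. All genes called, 2528 as reported, were 1674 scaled to Actb, 1331 at a mean of at least 5 FPKM, 1121 under the limits, 12 without moderation and 859 to 2467 without 1 library. The split of all calls into lower and higher, 2099 and 429 as reported, was 913 and 880 with quantile normalization, 807 and 1365 with median centring and 938 and 852 with cyclic loess, which set the median of all genes near 0 (0.01, 0.05 and 0.00 in place of -0.15). Beyond the settings' own construction, the cause of these changes was not tested.

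Some uncalled members changed sign. With quantile normalization the log2 fold changes were 0.115 for Ebna1bp2, 0.0315 for Fbl, -0.0312 for Ncl, 0.106 for Nle1, 0.00566 for Nob1, 0.185 for Rrp12, 0.131 for Utp15, 0.0828 for Wdr12 and 0.0813 for Wdr75. With median centring they were 0.158 for Ddx10, 0.112 for Ebna1bp2, 0.135 for Fbl, 0.0968 for Nle1, 0.111 for Nob1, 0.00807 for Nop14, 0.178 for Rrp12, 0.117 for Utp15, 0.0154 for Utp18, 0.0413 for Wdr12 and 0.0392 for Wdr75. With cyclic loess they were 0.108 for Ebna1bp2, 0.0215 for Fbl, 0.111 for Nle1, 0.184 for Rrp12, 0.135 for Utp15, 0.0705 for Wdr12 and 0.0682 for Wdr75. Scaled to Actb, Ddx10 was at 0.0241 and Rrp12 at 0.0347. Leaving out 1 library, Ebna1bp2 ranged from -0.172 to 0.0108 (above 0 without IgG replicate 2) and Rrp12 from -0.0832 to 0.0382 (above 0 without IgG replicate 2 or anti–VEGF-B replicate 3).

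The labels do not say whether the replicate numbers pair the libraries, which were treated as unpaired. The deviations of same-numbered libraries from their group means correlated at -0.03, 0.11 and 0.09 across genes. Those of libraries with different numbers correlated at -0.175 to 0.0997, and anti–VEGF-B replicates 1 and 3 correlated best with other numbers. With deviations from means of 3 libraries, these values cannot decide whether the numbers mark a pairing. With the replicate number as a block, 27 members, 40 further pathway genes and 2578 of all genes were called, and no member gained or lost its call (23.9% of all genes were lower). A pseudocount of 0.1 also called 27 members, as did no filter, with Polr1e called and Dkc1 not.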

Other observations

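Of the further pathway genes, 8 were under the filter of 1 FPKM. In 6 of them every anti–VEGF-B library was below every IgG library, against 37.7% of all genes under the filter, and in Mrm2 and Pwp2 the groups overlapped. Among the 6, the large ATPase Mdn1, which strips factors such as Nle1 from the large subunit, was at 0.501, 0.588 and 0.511 FPKM with anti–VEGF-B and 0.917, 1.40 and 1.10 FPKM with IgG, and Tbl3, a processome protein, at 0.682, 0.673 and 0.755 against 1.01, 1.25 and 0.990 FPKM. These examples were chosen after their values were seen. The coefficient of variation was larger in IgG than in anti–VEGF-B for 30 of the 50 members. The matching share of all genes was not counted.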
